A study of Mus musculus with 14 samples.

Results

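The DNA replication genes described here are 37 genes whose products license replication origins, unwind and copy DNA, load the sliding clamp, supply deoxynucleotides, restore chromatin and DNA methylation behind the fork, or, as the cyclins E, start S phase. They were given as a list of gene symbols, and 36 of the 37 were measured by a probe set annotated to that symbol alone, of 18194 genes so measured in the series. Chaf1a had no such probe set and is not described. The 4 groups were left ventricles of Hsp22 knockout (KO) mice after 3 days of pressure overload by TAC (transverse aortic constriction) surgery (4 arrays), of Hsp22 wild type (WT) mice after the same surgery (4 arrays), of KO mice in the basal condition (3 arrays) and of WT mice in the basal condition (3 arrays). All mice were male C57BL/6, and Hsp22 is the small heat shock protein encoded by Hspb8. The sources used here give no age, do not say which part of Hspb8 was removed, and name no sham operation, so the basal hearts served as the baseline. Whether the arrays of a group stem from different animals is not stated, and p-values then measure only the spread between these arrays.

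DNA replication is set up in G1, when ORC, Cdc6 and Cdt1 load the Mcm2-7 ring onto origins, and it starts when Cdc45 and GINS join that ring to form the active helicase. Polymerases copy both strands while the PCNA clamp, loaded by replication factor C, holds them to the template, and ribonucleotide reductase, thymidylate synthase and thymidine kinase provide the building blocks. Most of these genes are transcribed in late G1 and S phase under E2F transcription factors, so their mRNA is abundant in cycling cells and scarce in resting tissue. Cardiomyocytes of the adult heart rarely divide, and the cells known to cycle in a pressure-overloaded ventricle are largely non-myocytes such as fibroblasts and macrophages.

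The promoters of the members were searched for the E2F word, written as TTTCCCGC, TTTCGCGC, TTTGCCGC or TTTGGCGC on either strand, within the RefSeq sequence that runs from 250 bases before to 50 bases after a gene's start (build GRCm38.p6). Of 30 members in that table, 13 held at least 1 such word (43.3%), against 704 of 27025 gene symbols in all (2.6%). Among promoters at or above the members' median GC content of 61.3%, the share of genes with the word was 4.67%. The other replication genes held it in 12 of 40 and the mitosis genes in 1 of 19, whereas the CCAAT box stood in 17 of the 30 members (56.7%), in 16 of 19 mitosis genes and in 41.1% of all genes. A match is a description of these letters, not a measured binding site. The promoters below belong to the member of each role with the largest mean of its KO and WT differences after TAC among those with a word, and are shown 5′ to 3′ on the gene's strand with each word in capitals. Cdt1 lies at chr8:122567765-122568064 on the plus strand, with its word 32 bases after the start. Mcm5 lies at chr8:75109259-75109558 on the plus strand, where a pair of words on opposite strands overlap, the first beginning 153 bases before the start. Pola1 lies at chrX:93632106-93632405 on the minus strand and Lig1 at chr7:13278576-13278875 on the plus strand, and both carry the word on the opposite strand, read here as its reverse complement. Uhrf1 lies at chr17:56304063-56304362 on the plus strand, with its word 185 bases before the start. For Lig1 and Uhrf1 the table holds more than 1 start, and the one with the word is shown.
Cdt1: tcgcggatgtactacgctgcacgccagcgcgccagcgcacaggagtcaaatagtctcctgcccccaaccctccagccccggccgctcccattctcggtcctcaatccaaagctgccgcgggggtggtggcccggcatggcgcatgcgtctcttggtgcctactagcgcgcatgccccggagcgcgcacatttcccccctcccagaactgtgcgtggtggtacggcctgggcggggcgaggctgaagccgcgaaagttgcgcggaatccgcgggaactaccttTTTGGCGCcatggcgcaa
Mcm5: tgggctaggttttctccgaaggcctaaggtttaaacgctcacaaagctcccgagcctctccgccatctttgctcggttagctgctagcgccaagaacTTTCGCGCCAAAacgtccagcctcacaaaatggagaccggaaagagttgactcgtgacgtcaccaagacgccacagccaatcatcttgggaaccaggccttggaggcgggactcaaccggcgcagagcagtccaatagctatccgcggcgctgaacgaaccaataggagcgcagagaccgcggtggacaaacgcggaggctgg
Pola1: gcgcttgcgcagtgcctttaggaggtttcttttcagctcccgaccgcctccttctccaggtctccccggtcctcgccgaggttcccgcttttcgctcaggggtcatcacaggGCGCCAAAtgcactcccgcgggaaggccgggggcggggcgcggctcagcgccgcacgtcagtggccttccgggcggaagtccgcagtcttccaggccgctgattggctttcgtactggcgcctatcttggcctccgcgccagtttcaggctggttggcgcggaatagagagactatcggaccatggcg
Lig1: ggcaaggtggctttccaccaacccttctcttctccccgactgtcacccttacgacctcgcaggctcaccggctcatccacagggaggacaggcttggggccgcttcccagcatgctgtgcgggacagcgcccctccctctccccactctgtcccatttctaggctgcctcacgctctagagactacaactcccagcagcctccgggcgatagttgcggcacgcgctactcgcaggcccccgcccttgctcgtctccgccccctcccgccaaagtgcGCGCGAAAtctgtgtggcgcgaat
Uhrf1: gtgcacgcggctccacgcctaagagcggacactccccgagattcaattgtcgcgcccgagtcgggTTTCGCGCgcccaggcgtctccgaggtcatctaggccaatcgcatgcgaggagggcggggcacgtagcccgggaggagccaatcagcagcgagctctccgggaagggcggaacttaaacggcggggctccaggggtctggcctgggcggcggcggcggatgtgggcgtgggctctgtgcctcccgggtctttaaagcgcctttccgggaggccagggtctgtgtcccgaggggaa

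The values were log2 expression values made by RMA, in which 1 unit is a doubling of signal. A gene was called where limma's adjusted p, by the Benjamini-Hochberg method over 18194 genes, was under 0.05. The median of all values was 5.75, and a fold change is a lower bound ("at least") where the lower group's mean lay under it. Of the 36 members, 33 exceeded it in at least 3 arrays, and Cdc6, Tyms and Ccne2 did not. Median values of the 14 arrays lay between 5.7 and 5.8, and the correlation between arrays of a group was between 0.986 and 0.995 in TAC KO, 0.963 and 0.993 in TAC WT, 0.991 and 0.992 in basal KO, and 0.99 and 0.991 in basal WT. Names of the array files place the TAC arrays on another date than the basal arrays, so TAC and run cannot be told apart, and basal KO 3 on another date than the other basal arrays. The deleted gene matched its labels on 2 of its 3 probe sets. Hspb8 read 4.74 ± 0.344 in TAC KO and 11.52 ± 0.53 in TAC WT (SD, n = 4 each) on 1 of them, and 4.83 ± 0.384 in basal KO and 11.68 ± 0.356 in basal WT (SD, n = 3 each). On another it read 5.32 ± 0.147 in TAC KO, 10.61 ± 0.513 in TAC WT, 5.79 ± 0.117 in basal KO and 11.27 ± 0.375 in basal WT. On both, KO was lower past the threshold, with limma adjusted p over all probe sets between 6e-09 and 3.31e-08. The probe set of the class that can also bind other transcripts read 8.48 ± 0.223 in TAC KO and 9.07 ± 0.224 in TAC WT, and did not pass the test after TAC (adjusted p = 0.304).

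Many replication genes were higher after TAC in both genotypes, among them Rrm2, Uhrf1, Cdt1 and the helicase genes Mcm4, Mcm5 and Mcm6. In KO hearts 15 of the 36 members rose (41.7%), against 15.3% of all genes higher, and 2 fell, against 18.9% of all genes lower. In WT hearts 15 rose (41.7%), against 18.6% of all genes higher, and 1 fell, against 26.2% lower. The median difference of the members, TAC minus basal, was 0.74 in KO and 0.66 in WT, while the median over all genes was -0.09 in KO and -0.13 in WT. Without TAC WT 3 the members' median in WT was 0.33. The difference was positive for 33 members in KO and for 31 in WT, and for 30 in both. The 11 members that rose in both genotypes were Cdt1, Orc6, Mcm4, Mcm5, Mcm6, Pola1, Prim1, Prim2, Lig1, Rrm2 and Uhrf1. Rfc3, Rfc5, Rrm1 and Tk1 passed in KO alone and Mcm3, Mcm7, Rfc4 and Ccne2 in WT alone, and the test of the difference between genotypes called none of these 8.

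Every TAC array lay above every basal array for 27 members in KO (19.6% of all genes) and for 15 in WT (17.8% of all genes), 14 of them in both. The counts of calls rested on single arrays. In KO the count of risen members was 8 without TAC KO 4 and 9 without basal KO 2 or without basal KO 3, and it was 25 without TAC WT 3, which enters the KO comparison only through the shared spread. In WT it was 23 without TAC WT 1. The genes called in either direction moved as well, to 4542, 4559, 4700 and 7011 of all genes in KO without the same 4 arrays, against 6228 with every array, and to 8664 in WT without TAC WT 1, against 8150. With the spread taken from the arrays of 1 genotype alone, 26 members rose in KO (17.6% of all genes) and 8 in WT (14.8% of all genes). In bulk tissue, more cells of a type and more RNA per cell cannot be told apart.

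**Figure D1:**
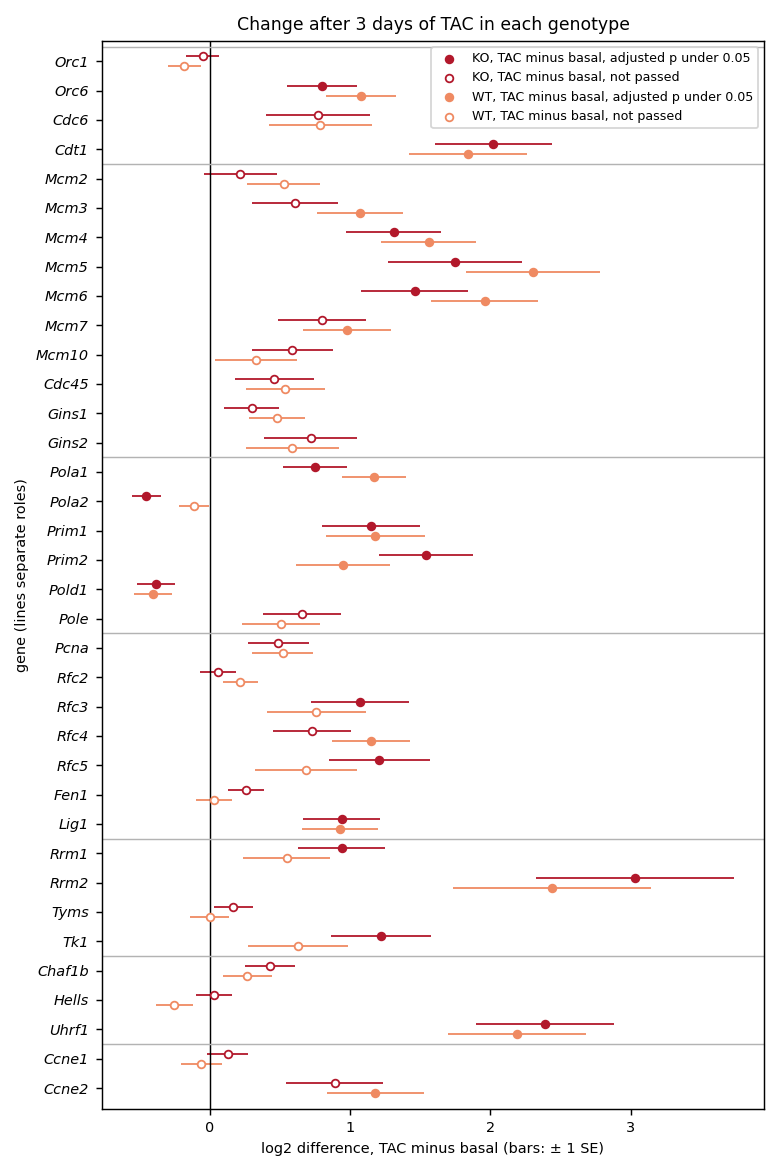
Log2 difference, TAC minus basal, for each of the 36 measured members in KO (dark red) and WT (orange), with bars of ± 1 SE from limma and filled points where the adjusted p is under 0.05. Rrm2 lies farthest to the right, at 3.03 in KO and 2.44 in WT, and Pold1 is left of 0 and filled in both.

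Of the 4 genes that license origins, Cdt1 and Orc6 rose in both genotypes and Orc1 and Cdc6 passed in neither. Cdt1, which brings the Mcm ring to the origin, read 7.72, 7.67, 7.94 and 8.33 in TAC KO arrays, against 6.16, 5.69 and 5.82 in basal KO arrays. It read 6.49, 7.07, 8.96 and 8.14 in TAC WT arrays, against 5.89, 5.66 and 5.92 in basal WT arrays. Every TAC array was above every basal array in both genotypes, and the 4 TAC WT arrays spanned a far wider range than the 4 TAC KO arrays. Cdt1 was 4.07-fold higher after TAC in KO (log2 difference 2.02, SE 0.418, limma adjusted p = 0.00302) and 3.58-fold higher in WT (1.84, SE 0.418, adjusted p = 0.00382). Orc6, the smallest subunit of the origin recognition complex, read 6.69, 6.81, 7.02 and 7.44 in TAC KO and 6.34, 6.28 and 5.95 in basal KO. In TAC WT it read 6.68, 6.95, 7.55 and 7.33, against 6.00, 5.57 and 6.56 in basal WT. The groups did not overlap in either genotype, and the log2 difference was 0.80 in KO (adjusted p = 0.0244) and 1.08 in WT (adjusted p = 0.00404). Cdc6, the ATPase that acts with ORC to load the ring, averaged 4.84 ± 0.334 in TAC KO and 4.07 ± 0.103 in basal KO, and 4.90 ± 0.963 in TAC WT and 4.11 ± 0.0513 in basal WT, all under the median of the table (adjusted p = 0.119 in KO and 0.0917 in WT). Orc1, the subunit of ORC that varies with the cell cycle, differed by -0.05 in KO and -0.18 in WT (adjusted p = 0.76 and 0.222).

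The 6 subunits of the Mcm2-7 ring and its activators all had positive differences in both genotypes, and 3 of the 10 rose in KO and 5 in WT. Mcm7 had the highest mean level of the role and read 8.59, 8.80, 9.02 and 9.26 in TAC KO, against 8.23, 8.14 and 7.98 in basal KO. It read 8.22, 8.42, 10.00 and 9.08, against 8.11, 7.90 and 7.84 in basal WT. All TAC arrays were above all basal arrays in both genotypes, although the margin between TAC WT 1 and the highest basal WT array was small. Mcm7 passed in WT (log2 difference 0.98, SE 0.315, adjusted p = 0.0226) and had 0.80 in KO (adjusted p = 0.0625). Other probe sets of Mcm7, at mean levels of 8.01 and 7.33, passed in neither genotype. They had 0.51 and 0.53 in KO, and 0.50 and 0.32 in WT. The dimmest, at 6.44, passed in both, with 1.56 in KO and 1.28 in WT. Mcm6 read 8.66, 8.64, 9.10 and 9.49 in TAC KO, against 7.08, 7.94 and 7.52 in basal KO. It read 8.15, 8.54, 10.21 and 9.24 in TAC WT, against 6.90, 7.23 and 7.08 in basal WT. The groups did not overlap, and Mcm6 was 2.75-fold higher in KO (1.46, SE 0.382, adjusted p = 0.0108) and 3.90-fold higher in WT (1.96, SE 0.382, adjusted p = 0.00161).

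Mcm2 stood apart from the rest of the ring on its brightest probe set. It read 8.52, 8.13, 8.44 and 8.33 in TAC KO, against 8.08, 8.19 and 8.12 in basal KO. Its TAC WT arrays read 7.82, 8.22, 9.35 and 8.67, against 7.91, 8.25 and 7.78 in basal WT. The arrays overlapped in both genotypes, and its difference was 0.22 in KO (adjusted p = 0.518) and 0.53 in WT (adjusted p = 0.105). Mcm5 averaged 7.76 ± 0.280 in TAC KO and 6.02 ± 0.111 in basal KO, a 3.35-fold difference (adjusted p = 0.0135). It averaged 7.69 ± 1.27 in TAC WT and 5.38 ± 0.321 in basal WT, at least 4.94-fold higher (adjusted p = 0.00228). Mcm4 rose 2.49-fold in KO (adjusted p = 0.0102) and 2.96-fold in WT (adjusted p = 0.00297), and Mcm3 passed in WT alone (log2 difference 1.07, adjusted p = 0.0127, against 0.61 and adjusted p = 0.133 in KO). The 4 activators passed in neither genotype. Cdc45 differed by 0.46 in KO and 0.54 in WT, Gins1 by 0.30 and 0.48, Gins2 by 0.72 and 0.59, and Mcm10, which helps to activate the assembled helicase, by 0.59 and 0.33.

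**Figure D2:**
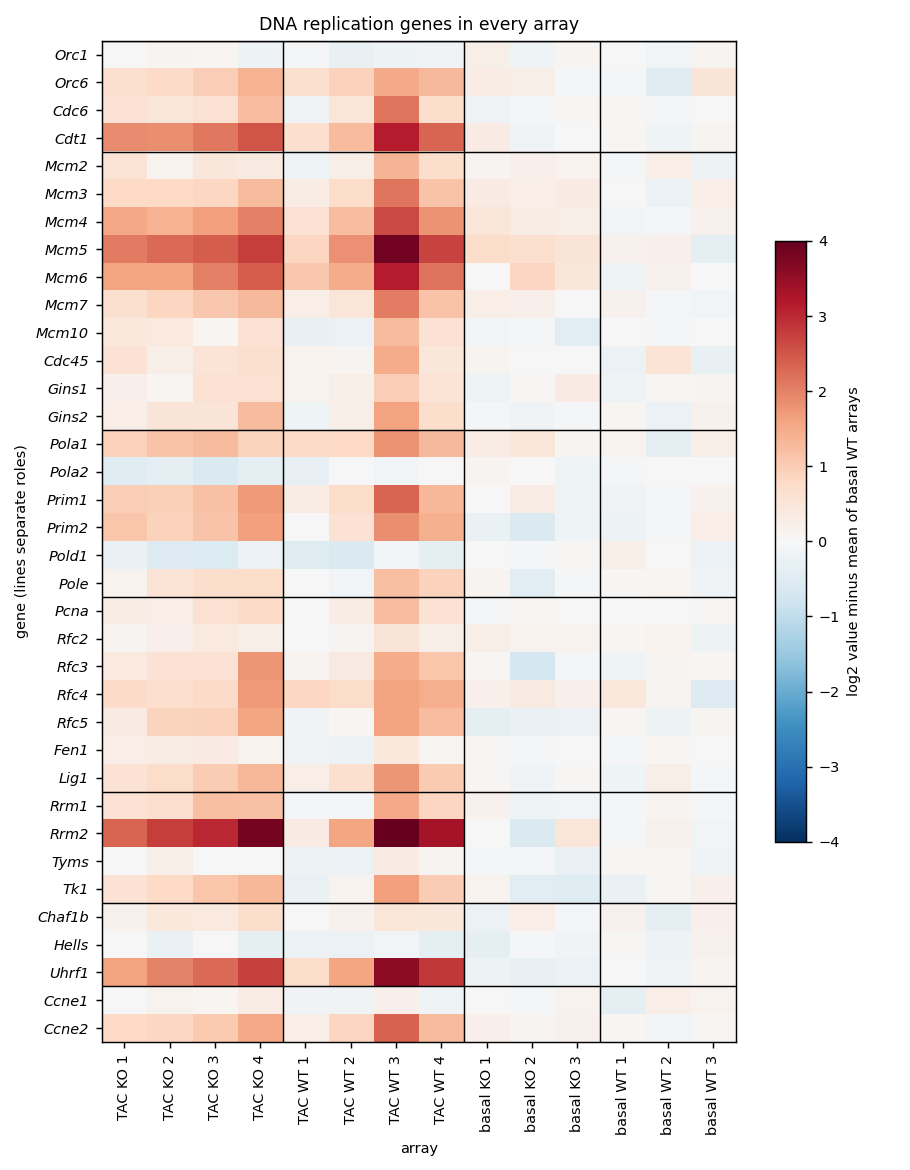
Log2 value of each member in every array minus the mean of the 3 basal WT arrays, with genes down the page in the order of their roles and arrays across in the order TAC KO, TAC WT, basal KO and basal WT. Red is higher and blue lower, and the column of TAC WT 3 is the reddest of its group, holding the highest value of the 4 TAC WT arrays in 34 of 36 members.

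Among the polymerases, both primase subunits and the catalytic subunit of polymerase alpha rose, while Pold1 fell in both genotypes and Pola2 fell in KO. Pola1, the catalytic subunit that starts each new strand with primase, read 7.18, 7.40, 7.51 and 7.15 in TAC KO, against 6.56, 6.75 and 6.38 in basal KO. It read 7.03, 7.05, 8.07 and 7.55 in TAC WT, against 6.40, 5.87 and 6.50 in basal WT. Neither pair of groups overlapped, and the log2 difference was 0.75 in KO (SE 0.227, adjusted p = 0.0223) and 1.17 in WT (SE 0.227, adjusted p = 0.00163). Prim1, the catalytic primase subunit, rose 2.22-fold in KO (adjusted p = 0.0228) and 2.27-fold in WT (adjusted p = 0.0158). Prim2, its partner, rose at least 2.91-fold in KO (adjusted p = 0.00414) and at least 1.94-fold in WT (adjusted p = 0.0338). Another probe set of Prim2, at a mean level of 5.73 beside 5.77 for the brightest, passed in both genotypes (1.2 in KO and 0.99 in WT). The probe set at 5.55 passed in neither (0.03 in KO and -0.23 in WT, adjusted p = 0.883 and 0.187 over all probe sets). Pola2, the regulatory subunit of polymerase alpha, went the other way in KO. It read 7.26, 7.41, 7.18 and 7.37 in TAC KO, against 7.86, 7.79 and 7.60 in basal KO. The TAC WT arrays read 7.44, 7.76, 7.65 and 7.74, against 7.72, 7.78 and 7.77 in basal WT. All TAC KO arrays were below all basal KO arrays, whereas the WT groups overlapped. The log2 difference was -0.45 in KO (SE 0.104, adjusted p = 0.00591) and -0.11 in WT (SE 0.104, adjusted p = 0.395).

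Pold1, the catalytic subunit of polymerase delta, read 6.98, 6.75, 6.71 and 7.04 in TAC KO, against 7.27, 7.19 and 7.30 in basal KO. Values in TAC WT were 6.77, 6.67, 7.15 and 6.88, against 7.50, 7.25 and 7.04 in basal WT. The KO groups did not overlap and the WT groups did. Its log2 difference was -0.38 in KO (SE 0.136, adjusted p = 0.0429) and -0.40 in WT (SE 0.136, adjusted p = 0.0305), and neither call remained when each array was centred on its own median. Its second probe set, at a similar mean level, had positive differences of 0.19 in KO and 0.37 in WT (adjusted p = 0.469 and 0.130 over all probe sets), so the direction of Pold1 depended on the probe set. Pole, the catalytic subunit of polymerase epsilon, differed by 0.66 in KO (adjusted p = 0.0758) and 0.51 in WT (adjusted p = 0.144).

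**Figure D3:**
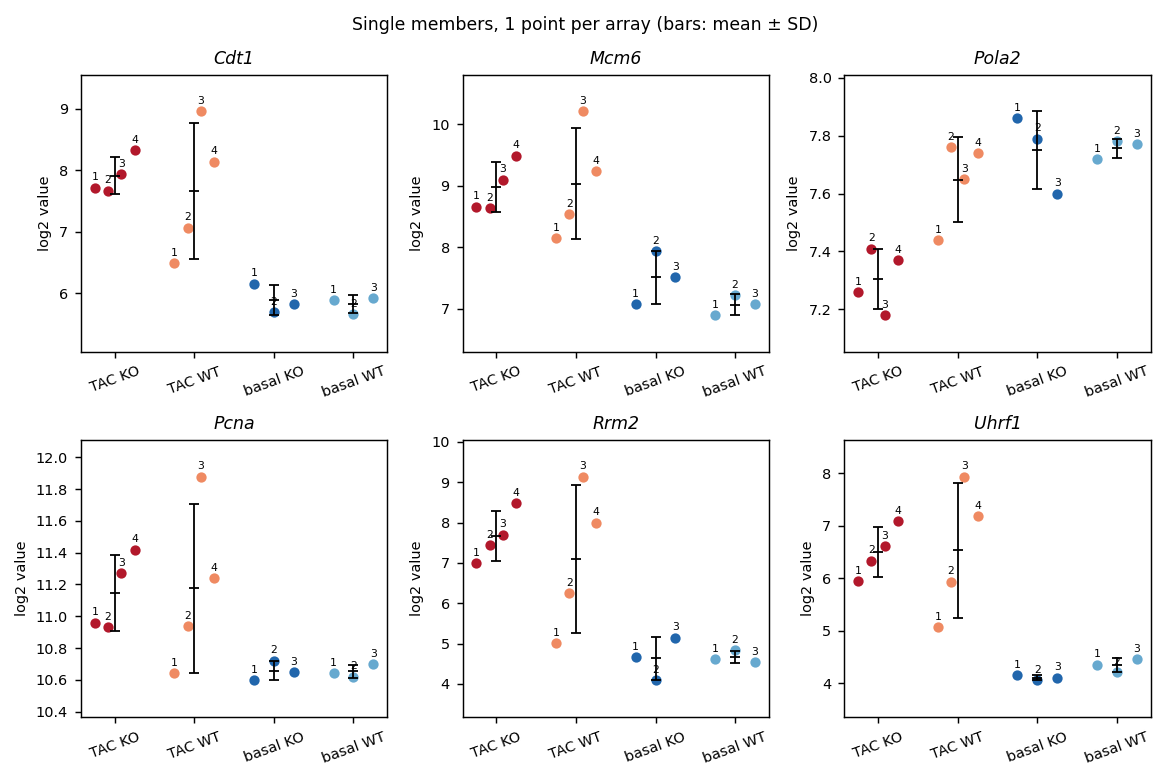
Log2 value of 6 members in every array, with numbers giving the array, horizontal marks the group means and bars ± SD; groups run TAC KO, TAC WT, basal KO and basal WT. In Cdt1, Mcm6, Rrm2 and Uhrf1 TAC WT array 1 is the lowest of the TAC arrays and TAC WT array 3 the highest of all, and in Pola2 the TAC KO arrays are lowest.

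Of the clamp, its loader and the enzymes of the lagging strand, 3 of 7 rose in KO and 2 in WT. Lig1, which seals the fragments of the lagging strand, averaged 7.56 ± 0.323 in TAC KO and 6.62 ± 0.115 in basal KO (1.91-fold, adjusted p = 0.0181), and 7.57 ± 0.640 in TAC WT and 6.64 ± 0.204 in basal WT (1.91-fold, adjusted p = 0.0145). Pcna, the sliding clamp and the brightest of all members, read 10.96, 10.93, 11.27 and 11.42 in TAC KO, against 10.60, 10.72 and 10.65 in basal KO. It read 10.64, 10.94, 11.88 and 11.24 in TAC WT, against 10.64, 10.62 and 10.70 in basal WT. All TAC KO arrays were above the basal KO arrays, while TAC WT 1 lay within the basal WT range. Pcna did not pass in either genotype (log2 difference 0.49, SE 0.219, adjusted p = 0.0973 in KO and 0.52, SE 0.219, adjusted p = 0.0655 in WT). Of the 4 clamp loader subunits Rfc2 to Rfc5, Rfc4 had the smallest p. It read 7.01, 6.92, 7.02 and 7.95 in TAC KO, against 6.43, 6.61 and 6.44 in basal KO. TAC WT arrays gave 7.08, 6.97, 7.84 and 7.69, against 6.66, 6.34 and 5.73 in basal WT. Neither pair of groups overlapped, and Rfc4 passed in WT (1.15, SE 0.279, adjusted p = 0.00546) with 0.73 in KO (adjusted p = 0.0559). Rfc3 and Rfc5 passed in KO, at 1.07 (adjusted p = 0.0306) and 1.21 (adjusted p = 0.0204), with 0.76 (adjusted p = 0.0889) and 0.69 (adjusted p = 0.128) in WT. Rfc2 differed by 0.06 in KO and 0.22 in WT.

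Fen1, the flap endonuclease that trims lagging strand fragments, gave different answers on its 2 probe sets. The brighter one, of a class that may cross-hybridise to other transcripts, read 9.73, 9.75, 9.79 and 9.60 in TAC KO, against 9.50, 9.39 and 9.47 in basal KO. In TAC WT it read 9.31, 9.26, 9.87 and 9.52, against 9.42, 9.53 and 9.44 in basal WT. The KO groups did not overlap and the WT groups did, with log2 differences of 0.26 (adjusted p = 0.12) in KO and 0.03 (adjusted p = 0.871) in WT. On the other probe set the differences were 1.23 in KO (adjusted p = 0.0205 over all probe sets) and 1.41 in WT (adjusted p = 0.00806 over all probe sets).

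Nucleotide supply held the largest change among all members, in Rrm2, the small subunit of ribonucleotide reductase whose level follows the cell cycle. Rrm2 read 7.0, 7.45, 7.70 and 8.49 in TAC KO, against 4.66, 4.09 and 5.15 in basal KO. It read 5.01, 6.26, 9.14 and 8.0 in TAC WT, against 4.62, 4.83 and 4.55 in basal WT. No TAC array overlapped the basal arrays of its genotype, and TAC WT 1 lay just above them. Rrm2 was at least 8.15-fold higher in KO (log2 difference 3.03, SE 0.706, adjusted p = 0.00588) and at least 5.41-fold higher in WT (2.44, SE 0.706, adjusted p = 0.0139). The size depended on the probe set: the other 2 of Rrm2, at nearly the same mean level, had 2.14 (adjusted p = 0.0244 over all probe sets) and 1.15 (adjusted p = 0.0504) in KO, and 1.85 (adjusted p = 0.037) and 1.02 (adjusted p = 0.0645) in WT. Rrm1, the large subunit, read 8.82, 8.92, 9.44 and 9.41 in TAC KO, against 8.41, 8.07 and 8.13 in basal KO. It read 8.17, 8.17, 9.75 and 9.11, against 8.21, 8.37 and 8.18 in basal WT. All TAC KO arrays were above the basal KO arrays, whereas TAC WT 1 and 2 lay just below the basal WT arrays. Rrm1 passed in KO (0.94, SE 0.311, adjusted p = 0.0313) and had 0.55 in WT (adjusted p = 0.16), and a second probe set of nearly the same level had 1.21 in KO and 1.22 in WT (adjusted p = 0.033 and 0.0255 over all probe sets).

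Tk1, the thymidine kinase of S phase, read 6.93, 7.14, 7.46 and 7.67 in TAC KO, against 6.47, 5.92 and 5.84 in basal KO. Its TAC WT arrays read 6.06, 6.47, 7.99 and 7.36, against 6.08, 6.40 and 6.54 in basal WT. The KO groups did not overlap, and TAC WT 1 and 2 lay within or just below the basal WT range. Its log2 difference was 1.22 in KO (SE 0.358, adjusted p = 0.0186) and 0.63 in WT (SE 0.358, adjusted p = 0.159). Tyms, thymidylate synthase, averaged 4.46 ± 0.118 in TAC KO, 4.41 ± 0.267 in TAC WT, 4.29 ± 0.127 in basal KO and 4.41 ± 0.121 in basal WT, under the median of the table throughout. A probe set annotated to both Tyms and Tyms-ps was not used.

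Uhrf1, which reads hemimethylated DNA and recruits the maintenance methyltransferase, carried the change among the chromatin factors. It read 5.95, 6.34, 6.62 and 7.09 in TAC KO, against 4.16, 4.06 and 4.11 in basal KO. It read 5.07, 5.94, 7.94 and 7.18 in TAC WT, against 4.36, 4.21 and 4.47 in basal WT. Every TAC array was above every basal array in both genotypes, and Uhrf1 was at least 5.24-fold higher in KO (log2 difference 2.39, SE 0.49, adjusted p = 0.00288) and at least 4.55-fold higher in WT (2.19, SE 0.49, adjusted p = 0.00356). A second probe set of Uhrf1, at a similar mean level, had only 0.42 in KO and 0.58 in WT and passed in neither (adjusted p = 0.297 and 0.131 over all probe sets). Chaf1b, a subunit of the histone chaperone CAF-1, read 6.09, 6.33, 6.31 and 6.62 in TAC KO, against 5.68, 6.17 and 5.87 in basal KO. The TAC WT arrays read 5.90, 6.09, 6.39 and 6.36, against 6.08, 5.55 and 6.12 in basal WT. Both pairs of groups overlapped, with differences of 0.43 in KO (adjusted p = 0.0734) and 0.27 in WT (adjusted p = 0.222). Hells, a chromatin remodeller needed for DNA methylation, depended on the probe set. The brightest read 6.79, 6.52, 6.80 and 6.41 in TAC KO and 6.40, 6.75 and 6.66 in basal KO. Values in TAC WT were 6.54, 6.54, 6.67 and 6.43, against 6.83, 6.59 and 6.95 in basal WT. The groups overlapped in both genotypes, with differences of 0.03 in KO (adjusted p = 0.889) and -0.25 in WT (adjusted p = 0.132), while a dimmer probe set had 1.69 in KO (adjusted p = 0.0441 over all probe sets) and 1.74 in WT (adjusted p = 0.0319 over all probe sets).

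The cyclins E, which drive Cdk2 at the start of S phase, parted. Ccne2 read 5.19, 5.21, 5.45 and 5.92 in TAC KO, against 4.59, 4.50 and 4.56 in basal KO. TAC WT arrays gave 4.64, 5.26, 6.76 and 5.65, against 4.48, 4.27 and 4.43 in basal WT. Neither pair of groups overlapped, and the log2 difference was 0.89 in KO (SE 0.347, adjusted p = 0.0599) and 1.18 in WT (SE 0.347, adjusted p = 0.0146, at least 2.27-fold). Ccne1 read 6.01, 6.12, 6.07 and 6.29 in TAC KO, against 5.97, 5.90 and 6.11 in basal KO. In TAC WT it read 5.84, 5.83, 6.19 and 5.82, against 5.60, 6.23 and 6.12 in basal WT. Its groups overlapped in both genotypes, with differences of 0.13 in KO (adjusted p = 0.509) and -0.06 in WT (adjusted p = 0.733).

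The 36 measured members had 81 probe sets, and 28 members had more than 1. In KO, another probe set was called where the brightest was not in 9 members, and not called where the brightest was in 11. In WT these counts were 7 and 11, and no member had probe sets called in opposite directions. Among the 11 in each genotype were Cdt1, Mcm5, Mcm6, Pola1, Prim1, Prim2, Rrm2, Uhrf1 and Pold1. Any other probe set is dimmer by the choice of the brightest, and for Rrm2, Uhrf1, Prim2 and Pold1 the uncalled one had a similar mean level. Rrm1 and Pola2 completed the list in KO, and Mcm3 and Mcm7 in WT. Differences of both signs occurred among the probe sets of 14 members in KO and 11 in WT. Counting only probe sets with a mean above the median of the table, this was so for Ccne1 and Pold1 in KO and for Pold1 in WT. The dimmer probe set of Cdc45 was lower after TAC in KO (log2 difference -0.42, adjusted p = 0.023) and in WT (-0.41, adjusted p = 0.0197), with adjusted p over all probe sets here and below. A second probe set of Mcm2 was higher in WT (1.05, adjusted p = 0.0435) but had 0.03 in KO (adjusted p = 0.965). A second one of Rfc2 was higher in KO (0.73, adjusted p = 0.0119) and in WT (0.53, adjusted p = 0.0429). Other probe sets of Mcm3 (1.32, adjusted p = 0.0394) and of Mcm7 (1.56, adjusted p = 0.000959) were called in KO. Second probe sets of Rfc3 and Rfc4 were called in both genotypes, at 1.0 in KO and 1.09 in WT for Rfc3 and at 1.34 in KO and 1.35 in WT for Rfc4. A dim probe set of Mcm10 was called in KO (0.31, adjusted p = 0.0311), and one of Tyms, also dim, was lower in KO (-0.41, adjusted p = 0.0385). The dimmest probe set of Rfc2 was called in KO (0.37, adjusted p = 0.0376).

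**Figure D4:**
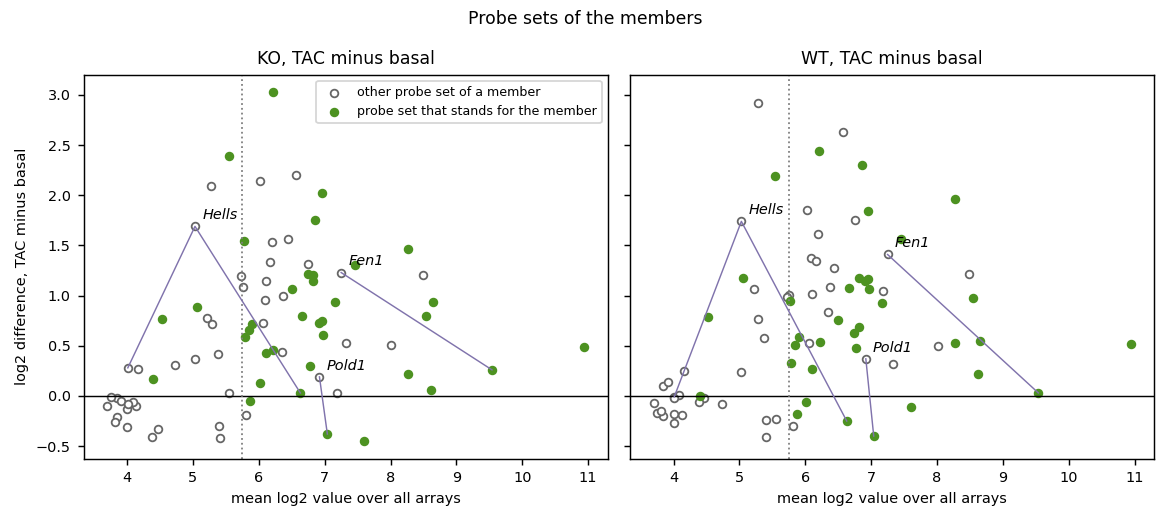
Log2 difference, TAC minus basal, of every probe set of the members against its mean log2 value over all 14 arrays, in KO (left) and WT (right); filled points stand for the member, the dotted line is the median of the table (5.75) and lines join the probe sets of Fen1, Hells and Pold1. The probe set that stands for Fen1 is near 0 in WT (0.03) while its other one is at 1.41.

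The TAC WT arrays differed among themselves far more than the TAC KO arrays did. The mean log2 value of the members was 7.03, 7.09, 7.25 and 7.53 in TAC KO and 6.54, 6.82, 7.98 and 7.38 in TAC WT. It was 6.46, 6.39 and 6.41 in basal KO and 6.38, 6.38 and 6.41 in basal WT. All 8 TAC arrays lay above all 6 basal arrays, with TAC WT 1 nearest to them and TAC WT 3 farthest. TAC WT 3 held the highest of the TAC WT values in 34 of 36 members, and TAC WT 1 the lowest in 27. Among all genes that rose in WT these shares were 62.1% and 57.2%. TAC KO 4 was highest of its group in 27 members, against 70.5% of all genes that rose in KO. The SD was larger in TAC WT than in TAC KO for 33 of 36 members and for 57.3% of all genes, and the median SD of a member was 0.278 in TAC KO, 0.655 in TAC WT, 0.129 in basal KO and 0.163 in basal WT. In 25 members the TAC WT arrays ran in the same order from low to high (1, 2, 4, 3), as in 12.2% of all genes.

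Other lists ran alongside over the same arrays. Their counts of calls stand beside shares of all genes of 15.3% higher and 18.9% lower in KO. In WT these shares were 18.6% higher and 26.2% lower. The mitosis genes averaged 6.68, 7.12, 7.13 and 7.24 in TAC KO, 5.36, 5.99, 8.10 and 7.08 in TAC WT, 5.24 to 5.30 in basal KO and 5.20 to 5.29 in basal WT, with the same order of the TAC WT arrays as the members. Of 21 mitosis genes measured, 14 rose in KO and 12 in WT, and 1 fell in WT, Tpx2 (-0.79, adjusted p = 0.00287). Mki67, the proliferation marker, had log2 differences of 3.10 in KO and 2.77 in WT. Anln, a scaffold of the cleavage furrow, had 3.14 in KO and 2.60 in WT, and Ccnb2, a mitotic cyclin, had 3.03 in KO and 2.06 in WT. Macrophage markers averaged 9.48, 9.69, 9.66 and 9.36 in TAC KO, 8.47, 8.80, 10.37 and 8.89 in TAC WT, 8.27 to 8.39 in basal KO and 8.01 to 8.18 in basal WT, and 9 of 12 rose in KO and 8 of 12 in WT, with 1 lower in WT. TAC WT 3 was the highest array of both lists, while among TAC KO arrays number 4 was highest for the members and lowest for the macrophage markers. Cardiomyocyte markers averaged 14.07 to 14.23 in TAC KO, 13.90 to 14.32 in TAC WT, 14.16 to 14.20 in basal KO and 14.17 to 14.24 in basal WT, with TAC WT 3 the lowest and Actc1 alone called, higher in WT.

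Fibroblast markers averaged 11.35 to 11.57 in TAC KO, 10.77 to 11.07 in TAC WT, 10.81 to 10.99 in basal KO and 10.36 to 10.78 in basal WT, and 4 of 8 rose in each genotype, with 3 of 8 lower in WT. Endothelial markers averaged 8.79 to 9.02 in TAC KO, 8.75 to 9.11 in TAC WT, 9.36 to 9.40 in basal KO and 9.16 to 9.36 in basal WT, with 3 of 8 lower in KO and 4 of 8 in WT. Smooth muscle and pericyte markers averaged 9.93 to 10.16 in TAC KO, 9.61 to 10.18 in TAC WT, 9.52 to 9.85 in basal KO and 9.60 to 9.73 in basal WT, and 3 of 7 rose in KO and 2 in WT, with 1 lower in WT. Neutrophil markers averaged 6.27 to 7.24 in TAC KO, 5.54 to 7.03 in TAC WT, 5.62 to 5.98 in basal KO and 5.54 to 6.38 in basal WT, with 2 of 4 higher in KO, and their Mpo was under the median of the table. Lymphocyte markers averaged 5.21 to 5.49 in TAC KO, 5.18 to 5.40 in TAC WT, 5.52 to 5.64 in basal KO and 5.52 to 5.59 in basal WT, with Cd3g, Ms4a1 and Nkg7 under that median, and 5 of 7 were lower in WT. Only 2 of 5 erythroid genes were measured, and they averaged 5.46 to 6.28 in TAC KO, 5.49 to 6.54 in TAC WT, 6.78 to 6.94 in basal KO and 6.68 to 7.02 in basal WT, with 1 lower in KO and 2 in WT and Hba-a1 under the median. The part of any of these cell types in the values of the replication genes was not tested.

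**Figure D5:**
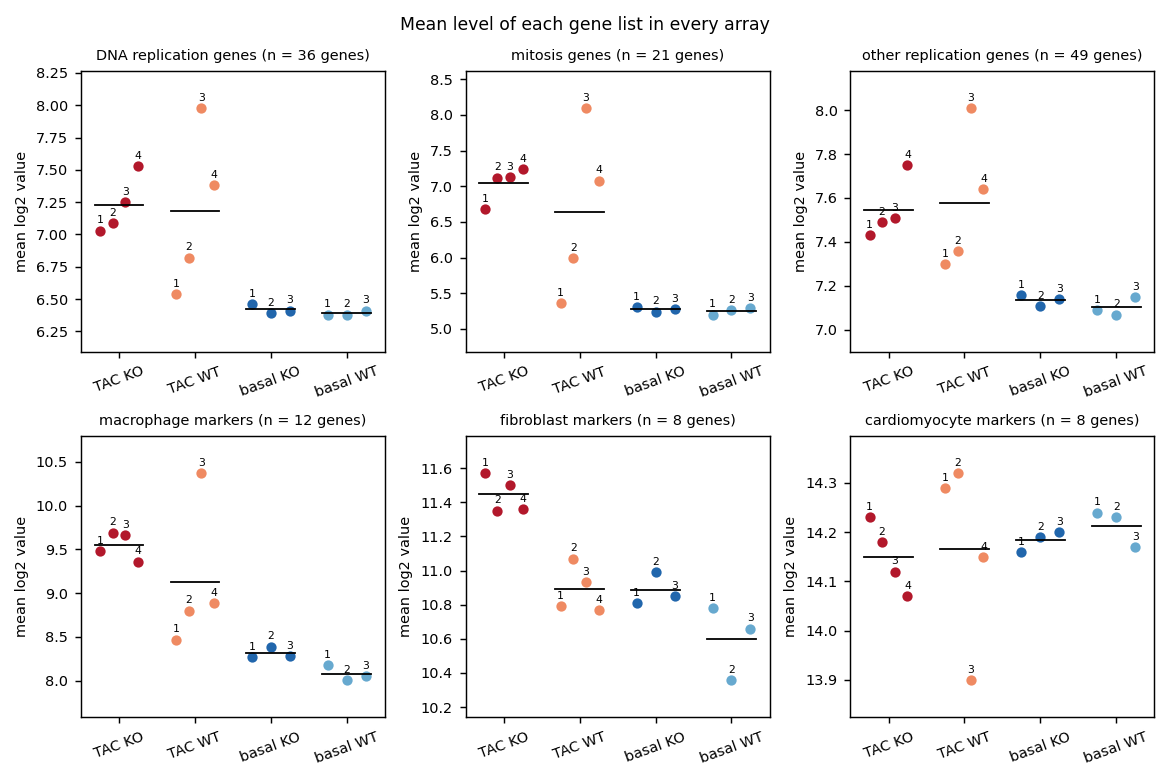
Mean log2 value of 6 gene lists in every array (1 point per array, numbered, with a line at the group mean), in the order TAC KO, TAC WT, basal KO and basal WT. The replication genes and the mitosis genes are spread most widely in TAC WT, where array 3 reaches 7.98 and 8.10.

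Of 49 other replication genes measured, 14 rose and 2 fell in KO, and 17 rose and 3 fell in WT, with medians of 0.26 in KO and 0.31 in WT. Those with the smallest p included Topbp1, which helps to start the helicase (1.36 in KO and 1.82 in WT), and Tipin, of the fork protection complex (1.02 in KO and 1.29 in WT). They also included Dtymk, thymidylate kinase (1.18 in KO), Top2a, topoisomerase II alpha (3.28 in KO), Orc4, an ORC subunit (0.89 in WT), and Slbp, which binds the stem loop of histone mRNA (1.06 in WT). Of 31 regulators of entry into S phase, 11 rose (35.5%) and 7 fell (22.6%) in KO. In WT 11 rose (35.5%) and 5 fell (16.1%). The shares of all genes were 15.3% higher and 18.9% lower in KO, and 18.6% higher and 26.2% lower in WT. Rb1, the retinoblastoma protein that holds E2F in check, rose by 1.12 in KO and 1.36 in WT, and Cdk6, which phosphorylates it, by 1.25 in KO and 1.52 in WT. In KO, Ccnd1, cyclin D1, was higher by 0.99, and Cdkn1a, the Cdk inhibitor p21, differed by -1.09. In WT, E2f3, an activating E2F, was higher by 1.33 and Rbl1, the pocket protein p107, by 2.05. All named values of these lists passed the test, with adjusted p between 0.000128 and 0.0031 for the other replication genes and between 0.00016 and 0.00171 for the regulators.

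Members with the E2F word in the promoter table did not all rise. Of the 13 measured members with a word, 7 rose in KO and 8 in WT, with medians of 0.80 in KO and 0.98 in WT. Of the 16 measured members in the table with no word, 6 rose in KO and 4 in WT, with medians of 0.54 in KO and 0.54 in WT. Among all genes, 15.3% were higher in KO and 18.6% in WT. Rrm2, the largest change, had no word in this window, and Pold1, which was lower on its brightest probe set alone, had 1. No test was made of this split.

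No member differed between KO and WT hearts past the threshold. After TAC, limma called 0 of 36 members between the genotypes, against 1 of 18194 genes (0.0055%), and 1 member, Pola2, had an unadjusted p under 0.05, as did 6.97% of all genes. The 1 gene called was Fbln5, an extracellular matrix protein, named here after its value was seen. Hspb8 is not among the calls, since its brightest probe set, which stands for it in these counts, is the one that did not pass (the others were lower in KO, as given above). Pola2 averaged 7.30 ± 0.105 in TAC KO and 7.65 ± 0.146 in TAC WT, and every TAC KO array was below every TAC WT array (log2 difference -0.34, SE 0.0962, adjusted p = 0.41). Fen1 averaged 9.72 ± 0.0822 in TAC KO and 9.49 ± 0.277 in TAC WT (0.23, SE 0.118, adjusted p = 0.782). Orc1 averaged 5.91 ± 0.134 in TAC KO and 5.73 ± 0.0968 in TAC WT (0.17, adjusted p = 0.826), Ccne1 6.12 ± 0.120 and 5.92 ± 0.180 (0.20, adjusted p = 0.84), and Rrm1 9.15 ± 0.323 and 8.80 ± 0.773 (0.35, adjusted p = 0.88). The median difference of the members, KO minus WT after TAC, was 0.02, beside 0.01 over all genes. With arrays weighted by their agreement with the fit, Pola2 and Fen1 passed. Under these weights many more of all genes passed as well, so the change was not particular to the members.

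In basal hearts limma called 0 of 36 members between KO and WT, as it did of all genes (0%), and 0 members had an unadjusted p under 0.05, while 6.98% of all genes did. The smallest p belonged to Hells, which averaged 6.60 ± 0.182 in basal KO and 6.79 ± 0.183 in basal WT (-0.19, SE 0.138, adjusted p = 0.883). Pola1 had a difference of 0.31 (adjusted p = 0.894), Rfc2 0.17 (adjusted p = 0.894), Mcm5 0.64 (SE 0.51, adjusted p = 0.897) and Mcm6 0.44 (adjusted p = 0.922). On a second probe set of Mcm5 the basal difference was 0.02. Names of the array files place basal KO 3 on another date than the other basal arrays. Without it, 0 of 36 members were called between KO and WT in basal hearts.

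The difference between genotypes in the response to TAC, taken as the difference of the KO effects, was called for 0 of 36 members and for 0% of all genes. For this difference 1 member had an unadjusted p under 0.05, against 8.19% of all genes. That member was Pola2, whose change after TAC was lower in KO by 0.34 on the log2 scale (-0.34, SE 0.147, adjusted p = 0.606). The next were Hells (0.27, adjusted p = 0.74), Fen1 (0.24, adjusted p = 0.782), Pola1 (-0.42, adjusted p = 0.785) and Prim2 (0.58, SE 0.477, adjusted p = 0.797). Over the 36 measured members the median SE of this difference was 0.405, beside 0.286 for TAC minus basal in each genotype.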

How the data were processed

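Left ventricular RNA was measured on 14 Affymetrix Mouse430_2 arrays. The deposited table holds log2 values for each probe set, which the authors made with RMA per the submitters' processing notes; the sources used here give neither its version nor whether the arrays were normalized as 1 set. Groups were taken from the sample titles. Of 45101 probe sets, 34958 had 1 gene symbol in the platform annotation, 932 several and 9211 none, and 34754 symbols were matched to RefSeq genes (GRCm38.p6) by gene number. For each of 18194 genes, the probe set that was brightest on average over the 14 arrays was used. No filter on low values was used, because a filter can admit a gene through the group where it is high; a filter (above 5.75 in at least 3 arrays) was an alternative.

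A linear model with 4 group means was fitted to all arrays in R 4.3.3 with limma 3.58.1 (eBayes with a constant prior, 10 residual and 3.98 prior degrees of freedom). Contrasts were TAC minus basal in each genotype, KO minus WT after TAC and at baseline, and the difference of these KO effects, with Benjamini-Hochberg adjustment over all genes and a threshold of 0.05. SE comes from the model, and ± gives the SD between arrays. The fit was tested on simulated data. Intensities before RMA were not used, so depth is given by the number of arrays alone.

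Members and lists were chosen with earlier results of these data known. Values in every array are given for the 2 members with the highest mean and the member with the smallest p after TAC in each role; for contrasts between genotypes, the members that pass or the 5 with the smallest p are named, and of the other lists up to 4 with the smallest p in each TAC contrast. Alternatives were the filter, averaging a gene's probe sets, testing all probe sets singly, quantile normalization, median centring, eBayes with a trend, weighted arrays, a replicate block, each comparison on its own arrays and each array left out in turn. A fit without probe sets of the classes that can bind several transcripts was added after seeing the data.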

Additional observations from a re-analysis of the deposited data

Results flagged for a closer look

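Within each group of 4 TAC arrays, 72 sets of values (36 members in TAC KO and TAC WT) were examined for a single array far from the other 3, by a gap that exceeded Dixon's critical value for groups of 4. Such a gap arises by chance in about 1 in 20 groups, and 4 of the 72 showed it. TAC KO 4 stood far above the other TAC KO arrays for Mcm3 (7.58), for Rfc3 (7.87) and for Rfc4 (7.95). TAC WT 3 stood far above the other TAC WT arrays for Ccne1 (6.19).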

How the results depend on the processing

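The members that rose after TAC numbered 15 in KO and 15 in WT. In KO the count was 25 with array weights, 26 on the arrays of KO alone and 8 to 25 with 1 array left out, and in WT it was 8 on the arrays of WT alone and 12 to 23 with 1 array left out. The members' median difference in WT was 0.66, and 0.34 with array weights and 0.33 to 0.95 with 1 array left out. Under the other alternatives run, the counts of risen members stayed within 1.5 times of these. Tested as every probe set on its own, 11033 (KO) and 14510 (WT) were called after TAC, and a called probe set had the opposite sign to the value reported for the gene for Cdc45 (-0.42 in KO and -0.41 in WT), Tyms (-0.41 in KO) and Hells (1.74 in WT). Between genotypes after TAC, array weights called 2 members, Pola2 and Fen1. Of all genes, 1 was called there in the fit reported, 505 with array weights, 2 after quantile normalization, 3 without probe sets of the classes that can bind several transcripts, 6 as single probe sets and 0 to 100 with 1 array left out. In basal hearts 0 genes were called in the fit reported, 1 with the mean of probe sets, 1 without those classes and 2 as single probe sets. The cause of these shifts was not tested. With a replicate block 15 members rose in KO, 16 in WT and 0 genes were called between genotypes after TAC. KO and WT arrays were also correlated with each other after each gene's group mean was subtracted. Same-numbered arrays then had correlations of 0.548, -0.0556, -0.0816 and 0.42 after TAC and of -0.0083, 0.0654 and -0.00396 in basal hearts. Arrays of different numbers had -0.509 to 0.515 after TAC and -0.0433 to 0.0479 in basal hearts. Whether the numbers pair the samples cannot be told from these values. With 3 or 4 arrays a group, small differences between genotypes could not be called, and larger ones could be missed. Hspb8 itself, on its brightest probe set, had a log2 difference of -1.08 in basal hearts and was not called (limma adjusted p = 0.193 over all probe sets). Members under the median of the table have only a bound on their fold.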
